A study of Mus musculus with 9 samples.

Results

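Genes of fatty acid uptake and lipid storage were followed in C2C12 muscle fibres: Lpl, Vldlr, Cd36, Slc27a1, Fabp3, Fabp4, Fabp5, Acsbg1, Plin2 and Pnpla2. They were chosen by symbol from the 24063 gene symbols of the count tables, so that the set holds 10 genes. Of these, 9 passed edgeR's filter on low counts and stood among the 14006 genes tested, while Fabp4 did not. C2C12 is an established mouse myoblast line, here wild type, whose cells fuse into multinucleated fibres when serum is lowered. All 9 libraries came from fibres differentiated in DMEM with 2% FBS and carry the label day 3. The 3 control libraries came from normal medium. The 3 libraries named 1C-MIM, for One-Carbon Metabolite Induced Medium, came from fibres whose medium held 6 added one-carbon metabolites. The 3 scramble libraries came from fibres given 6 metabolites unrelated to that network. Neither the names nor the doses of the metabolites are stated in the labels. The cultures are of a single cell line, without the capillaries of muscle tissue. Nothing in the labels states that replicate libraries stem from separate cultures. The p-values therefore rest on library-to-library spread alone, and this spread may be technical.

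Muscle takes up fatty acids along a short chain of proteins. Lipoprotein lipase (Lpl) frees fatty acids from the triglyceride of circulating lipoproteins, and the VLDL receptor (Vldlr) binds these particles. The translocase Cd36 and the transporter Slc27a1 (FATP1) carry the fatty acids across the plasma membrane, and fatty acid binding proteins (Fabp3, Fabp4, Fabp5) hold them in the cytosol. Acyl-CoA synthetases such as Acsbg1 activate them. Surplus acyl-CoA is stored as triglyceride in lipid droplets, which Plin2 coats and from which Pnpla2 (adipose triglyceride lipase, ATGL) releases fatty acids again. Several of these genes are textbook targets of PPAR and RXR nuclear receptors, which bind copies of the half-site AGGTCA.

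Promoter windows of 4 of these genes are shown as examples. Acsbg1, Cd36 and Fabp3 fell with 1C-MIM, as described below, whereas Plin2 did not pass the test. Each window runs 5′ to 3′ on the gene's strand, from 250 bases before to 50 bases after a RefSeq start site (build GRCm38.p6). The Acsbg1 window is chr9:54661836-54662135 (minus strand), the Cd36 window chr5:17835847-17836146 (minus), the Fabp3 window chr4:130308488-130308787 (plus) and the Plin2 window chr4:86670010-86670309 (minus). Capitals mark exact matches, on either strand, to the half-site AGGTCA, the hypoxia response core ACGTG, the E-box CAGCTG bound by MyoD and myogenin, the GC box GGGCGG and the TATA box TATAAA.
Acsbg1: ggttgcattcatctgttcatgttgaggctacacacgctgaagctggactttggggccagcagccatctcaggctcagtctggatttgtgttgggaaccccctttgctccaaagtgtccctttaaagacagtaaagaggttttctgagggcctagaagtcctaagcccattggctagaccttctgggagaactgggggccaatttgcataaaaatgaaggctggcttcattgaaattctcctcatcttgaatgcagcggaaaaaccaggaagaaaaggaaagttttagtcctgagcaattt
Cd36: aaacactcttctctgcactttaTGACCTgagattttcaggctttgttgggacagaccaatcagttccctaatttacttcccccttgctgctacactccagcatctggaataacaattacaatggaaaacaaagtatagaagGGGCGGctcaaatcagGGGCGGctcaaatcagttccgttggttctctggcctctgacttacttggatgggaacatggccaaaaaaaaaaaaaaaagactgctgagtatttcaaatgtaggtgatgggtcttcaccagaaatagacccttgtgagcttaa
Fabp3: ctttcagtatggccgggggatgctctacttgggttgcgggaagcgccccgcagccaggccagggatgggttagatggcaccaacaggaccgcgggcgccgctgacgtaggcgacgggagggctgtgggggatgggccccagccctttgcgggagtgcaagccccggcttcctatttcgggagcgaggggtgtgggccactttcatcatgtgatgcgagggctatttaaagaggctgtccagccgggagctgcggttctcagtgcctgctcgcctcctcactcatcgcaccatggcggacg
Plin2: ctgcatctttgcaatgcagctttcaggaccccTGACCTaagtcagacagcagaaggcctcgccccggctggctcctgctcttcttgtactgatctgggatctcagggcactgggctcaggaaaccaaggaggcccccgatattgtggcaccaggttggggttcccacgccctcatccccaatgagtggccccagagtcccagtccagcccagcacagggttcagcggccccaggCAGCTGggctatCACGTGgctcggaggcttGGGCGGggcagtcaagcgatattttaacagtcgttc
The windows of Acsbg1 and Fabp3 held none of the 5 motifs. Cd36 held 1 half-site, read as TGACCT on the printed strand, and 2 GC boxes. Plin2 held 1 half-site, 1 E-box, 1 GC box and the palindrome CACGTG, in which ACGTG matches on both strands and overlaps itself. Over all 32851 windows of this length, 16.3% held the half-site, 19.6% the hypoxia core, 16.3% the E-box, 35.7% the GC box and 13.6% the TATA box. Among the 7 genes of the set with a window, which have 10 windows in all, the half-site was present in Cd36 and Plin2 only. Slc27a1 and Vldlr also fell with 1C-MIM, and their windows are not printed. Among the windows of each were matches to the E-box and the GC box, and for Slc27a1 also to ACGTG. These matches describe letters in a window and say nothing of binding.

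The count total was 29.0 to 33.2 M per library, with 1 transcript per gene. TMM scaling factors lay between 0.981 and 1.02. In each group the library numbered 1 differed more from the other 2 than these did from each other. The chi-square of the counts over genes, for each degree of freedom, was 42.8 and 47.5 for the pairs with control replicate 1 and 7.59 for the other pair. It was 15.1 and 15.5 against 3.26 in scramble, and 9.12 and 13.1 against 4.16 in 1C-MIM. Control replicate 1 also stood apart for genes of the set. Levels are counts scaled by library total and TMM factor (CPM). Relative to the mean of control replicates 2 and 3 it differed by 0.58 for Cd36, -0.55 for Fabp5, -0.55 for Acsbg1 and 0.31 for Pnpla2 (log2 ratio of CPM after adding 0.5 CPM). Calls were therefore also made without it. A fold change without it is given for Plin2, the only tested gene of the set whose call changed. The labelled fibre type was checked against marker genes. All 10 skeletal muscle fibre markers were detected in every group. Their levels summed to 9441, 5395 and 4801 CPM in control replicates 1 to 3, to 8220, 5637 and 5780 CPM in scramble and to 9914, 8386 and 8011 CPM in 1C-MIM. The library numbered 1 had the highest sum in each group. With the libraries numbered 1 the groups overlapped, and among the other 6 libraries both 1C-MIM sums lay above all 4 others. Myh3, an embryonic myosin gene chosen as an example after its values were seen, was at 1738, 753 and 608 CPM in control, at 1637, 914 and 863 CPM in scramble and at 1635, 1248 and 1051 CPM in 1C-MIM. Myh8, another myosin gene of the list, was at 220, 104 and 70.8 CPM in control and at 203, 90.9 and 87.6 CPM in scramble. In 1C-MIM Myh8 was at 70.0, 54.4 and 52.9 CPM, below all other libraries, so the markers did not move together. Of the 10 fibre markers, 2 rose with 1C-MIM against control (Myog and Ckm), and 8 were not called. The part of the fibre markers in the changes described below was not tested. Without the 3 libraries numbered 1, the set gave the same calls as with them in all 3 comparisons except for Plin2 against control.

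With 1C-MIM, the lipase gene Lpl rose while those for a lipoprotein receptor, 2 membrane carriers, 2 binding proteins and an activating enzyme fell. Against control, 1 of the 9 tested genes was higher (Lpl), 6 were lower (Vldlr, Cd36, Slc27a1, Fabp3, Fabp5, Acsbg1) and 2 were not called (Plin2, Pnpla2). The same counts were obtained against scramble, for these same genes. Calls are at an edgeR adjusted p below 0.05. Over all 14006 genes, 47.3% were called against control (22.9% higher, 24.3% lower) and 46% against scramble (22.9% higher, 23.2% lower), so a large part of the transcriptome differed in these comparisons. Both comparisons use the same 1C-MIM libraries and are not independent of each other. In scramble against control, none of the 9 genes was called, and 0% of all genes were (0% higher, 0% lower). The median log2 fold change over all tested genes was -0.01 against control and its median absolute value 0.23. Libraries of the 2 groups did not overlap for 55.5% of all tested genes in 1C-MIM against control and 59.5% against scramble. Separation of libraries, given below gene by gene, was thus common to most genes. In scramble against control this share was 9.09%, with Lpl and Slc27a1 among these genes.

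**Figure D1:**
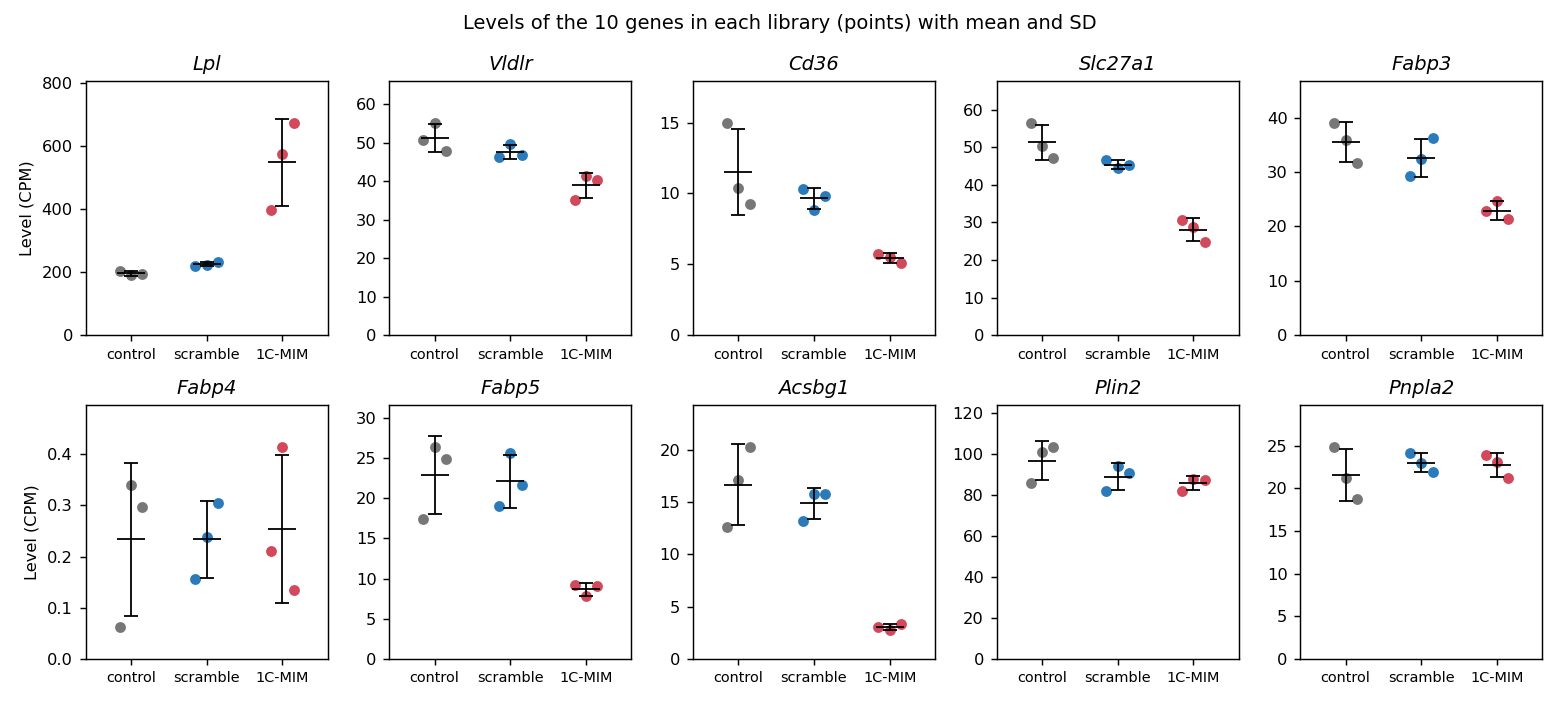
Level of each of the 10 genes in counts scaled to library size (CPM, linear axis from 0) in the 3 control, 3 scramble and 3 1C-MIM libraries. Points are libraries, in replicate order within a group, with mean and SD as bars. The 3 1C-MIM libraries lie above all others for Lpl, below all others for Vldlr, Cd36, Slc27a1, Fabp3, Fabp5 and Acsbg1, and overlap with the others for Fabp4, Plin2 and Pnpla2. Of all tested genes, 55.5% had no overlap of libraries between 1C-MIM and control, and 59.5% between 1C-MIM and scramble.

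Lpl encodes the secreted lipase at the head of this route. Its level was 205, 190 and 194 CPM in control replicates 1 to 3 and 219, 223 and 233 CPM in scramble. In 1C-MIM it was 398, 575 and 672 CPM. All 1C-MIM libraries lay above the other 6, and the lowest of them was still well above the highest scramble library. The log2 fold change against control was 1.48 ± 0.16 (SE), or 2.80-fold (95% interval 1.13 to 1.84 on the log2 scale, edgeR adjusted p = 8.5e-05). Against scramble it was 1.28 ± 0.16, or 2.43-fold (edgeR adjusted p = 2.0e-04). The 1C-MIM libraries differed more among themselves for Lpl than those of the other groups, with a coefficient of variation of 25.4%, against 3.88% in control and 3.13% in scramble. Every scramble library was also above every control library, but this difference of 0.20 ± 0.15 on the log2 scale was not called.

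Vldlr encodes the receptor that binds triglyceride-rich lipoproteins. It stood at 50.8, 55.1 and 47.8 CPM in control, at 46.3, 49.7 and 47.0 CPM in scramble and at 35.2, 41.4 and 40.3 CPM in 1C-MIM. The 1C-MIM libraries were below all others, while control and scramble overlapped. With a log2 fold change of -0.39 ± 0.07 against control (edgeR adjusted p = 0.0012) and -0.29 ± 0.07 against scramble (edgeR adjusted p = 0.0074), it had the smallest change among the 6 genes that fell.

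Cd36 and Slc27a1 carry fatty acids across the membrane, and both fell. Cd36 was at 14.9, 10.4 and 9.25 CPM in control, at 10.3, 8.84 and 9.84 CPM in scramble and at 5.74, 5.52 and 5.08 CPM in 1C-MIM. The 1C-MIM libraries were again the lowest and close to each other, whereas control replicate 1 was higher than every other library. Its log2 fold change was -1.08 ± 0.16 against control (edgeR adjusted p = 3.6e-04) and -0.83 ± 0.17 against scramble (edgeR adjusted p = 0.0021). Slc27a1, which also has acyl-CoA synthetase activity, was at 56.4, 50.3 and 47.2 CPM in control, at 46.5, 44.4 and 45.3 CPM in scramble and at 30.6, 28.8 and 24.7 CPM in 1C-MIM. Here each scramble library lay below each control library, and the 1C-MIM libraries were far below both. The log2 fold change was -0.87 ± 0.08 against control (edgeR adjusted p = 1.7e-05) and -0.70 ± 0.08 against scramble (edgeR adjusted p = 8.6e-05).

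Of the binding proteins, Fabp3 and Fabp5 fell and Fabp4 was barely present. Fabp3, the heart and muscle form, was at 38.9, 35.8 and 31.6 CPM in control, at 29.2, 32.3 and 36.2 CPM in scramble and at 22.8, 24.6 and 21.3 CPM in 1C-MIM. Control and scramble overlapped, and no 1C-MIM library reached them. Its log2 fold change was -0.63 ± 0.10 against control (edgeR adjusted p = 3.7e-04) and -0.51 ± 0.10 against scramble (edgeR adjusted p = 0.0016). Fabp5, the form first known from epidermis, was at 17.4, 26.4 and 24.9 CPM in control, at 19.1, 25.6 and 21.7 CPM in scramble and at 9.23, 7.77 and 9.02 CPM in 1C-MIM. Control replicate 1 was the lowest of the 6 libraries without added one-carbon metabolites and was still above every 1C-MIM library. The log2 fold change was -1.40 ± 0.17 against control (edgeR adjusted p = 1.0e-04) and -1.35 ± 0.17 against scramble (edgeR adjusted p = 1.4e-04). Fabp4, the form of adipocytes and macrophages, had 2, 11 and 10 counts in control, 5, 7 and 9 in scramble and 6, 12 and 4 in 1C-MIM, which is at most 0.414 CPM. At this level it was not tested, and no difference was detectable. About 9.72% and 9.84% of the exon bases of Fabp3 also lie in exons of Gm10570 and Zcchc17 on the opposite strand in GENCODE vM21, and Fabp3 and Fabp5 have the processed pseudogenes Fabp3-ps1 and Fabp5l2. The labels state neither whether strand was used in counting (for Fabp3) nor how reads that match several genes were counted (for Fabp3 and Fabp5). The levels of both genes are uncertain to that extent.

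Acsbg1, the bubblegum acyl-CoA synthetase that activates long-chain and very long-chain fatty acids, had the largest change of the set in both 1C-MIM comparisons. It was at 12.6, 17.2 and 20.3 CPM in control, at 13.2, 15.7 and 15.7 CPM in scramble and at 3.03, 2.73 and 3.30 CPM in 1C-MIM. Counts in 1C-MIM were 86, 79 and 98, against 400 to 681 in control and 420 to 464 in scramble. Even the lowest control library, again replicate 1, was several-fold above every 1C-MIM library. The log2 fold change was -2.46 ± 0.18 against control (edgeR adjusted p = 3.6e-06) and -2.30 ± 0.18 against scramble (edgeR adjusted p = 6.2e-06), so that 0.181 and 0.203 of the level remained.

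Neither the droplet coat gene nor the droplet lipase gene was called. Plin2 was at 85.9, 101 and 103 CPM in control, at 81.8, 94.4 and 90.7 CPM in scramble and at 81.8, 88.0 and 87.3 CPM in 1C-MIM. The groups overlapped, with control replicate 1 inside the range of the 1C-MIM libraries. Against control the log2 fold change was -0.17 ± 0.08 (95% interval -0.34 to -0.01, edgeR adjusted p = 0.080), and it was not called. Without control replicate 1 it was -0.26 (edgeR adjusted p = 0.0030) and was called, which made 7 genes lower. It was also called with the replicate number as a block (-0.17, edgeR adjusted p = 0.0076). Against scramble the difference was -0.05 ± 0.08 (edgeR adjusted p = 0.59), with a 95% interval of -0.22 to 0.11.

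Pnpla2, the lipase of the first step of triglyceride breakdown, was at 24.9, 21.2 and 18.7 CPM in control, at 24.1, 23.0 and 21.9 CPM in scramble and at 23.9, 23.1 and 21.2 CPM in 1C-MIM. All 3 groups overlapped. The log2 fold change was 0.07 ± 0.10 against control (95% interval -0.14 to 0.29, edgeR adjusted p = 0.55) and -0.02 ± 0.10 against scramble (95% interval -0.23 to 0.20, edgeR adjusted p = 0.90). The intervals leave room for a small change in either direction. Its counts are those of a non-coding RefSeq transcript, and those of its coding transcripts lay at most 2.34% below them. Across the 4 genes of the set with more than 1 transcript, the choice of transcript moved a count by at most 3.97% (Cd36).

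**Figure D2:**
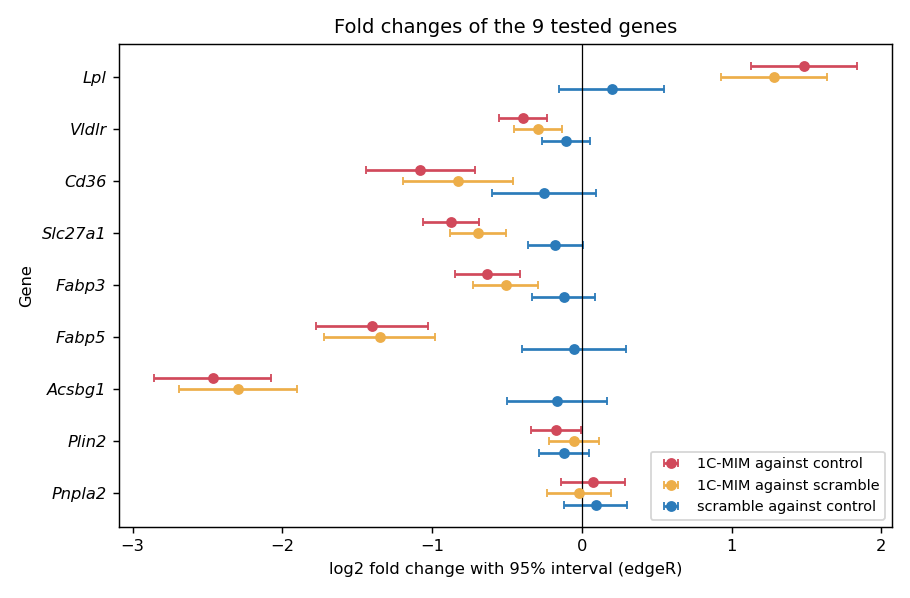
Log2 fold changes (edgeR) of the 9 tested genes with 95% intervals, for 1C-MIM against control, 1C-MIM against scramble and scramble against control. Lpl lies to the right of 0 in both 1C-MIM comparisons, Acsbg1 lies farthest to the left (-2.46 and -2.30), and the intervals of all 9 genes include 0 for scramble against control.

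With the scramble metabolites none of the 9 genes was called. In scramble against control the log2 fold changes ran from -0.25 ± 0.16 for Cd36 to 0.20 ± 0.15 for Lpl. The smallest unadjusted p was 0.057, for Slc27a1 (-0.18 ± 0.08), and all adjusted p from edgeR were 1.00. Over all genes edgeR called none, with 482 at an unadjusted p below 0.05 (3.44%), none of them in the set. DESeq2 called 4 genes, or 30 with its independent filtering, and limma-voom called 0. Leaving out control replicate 1 gave 3 called genes with edgeR and leaving out the 3 libraries numbered 1 gave 96, again none from the set. The 95% intervals in this comparison reach -0.60 for Cd36 and 0.55 for Lpl, so changes of that size could have gone uncalled.

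Levels of different genes are compared by the authors' FPKM, which take transcript length into account. In control, Fabp3 (33.9 ± 3.5), Plin2 (31.4 ± 3.0) and Lpl (29.6 ± 1.2, mean FPKM ± SD, n = 3) led the set and overlapped in order from each to the next. Fabp5 (14.7 ± 3.1) and Slc27a1 (11.2 ± 1.0) overlapped as well. Pnpla2 (4.86 ± 0.70) came next, Vldlr (3.77 ± 0.26) and Acsbg1 (3.67 ± 0.85) overlapped, and Cd36 (1.98 ± 0.52) and Fabp4 (0.223 ± 0.14) were last. Scramble had the same leading 3 genes, in the order Lpl, Fabp3 and Plin2, with overlap between neighbours. In 1C-MIM, Lpl stood alone at 80.8 ± 20.6 FPKM, followed without overlap by Plin2 (27.1 ± 1.1) and Fabp3 (21.3 ± 1.6). Slc27a1 (5.98 ± 0.64), Fabp5 (5.44 ± 0.49) and Pnpla2 (4.99 ± 0.29) overlapped in order, and Cd36 (0.911 ± 0.055) was now above Acsbg1 (0.649 ± 0.061).

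Lpl thus made up 53.2% of the summed FPKM of the set in 1C-MIM (45.9 to 59.4% over libraries), against 21.9% in control (20.7 to 23.0%) and 25.8% in scramble (24.9 to 26.8%). The sum of the other 9 genes was 67.6 to 71.8 FPKM in 1C-MIM, below the 104 to 109 FPKM of control and the 89.6 to 101 FPKM of scramble. Among all tested genes, 88.0% lay below Lpl by mean FPKM in control and 96.3% in 1C-MIM. For Acsbg1 this share went from 37.8% in control to 16.2% in 1C-MIM, and for Fabp5 from 75.2% to 48.4%. Plin2 (88.7% and 86.9%) and Pnpla2 (44.5% and 46.1%) moved by less.

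**Figure D3:**
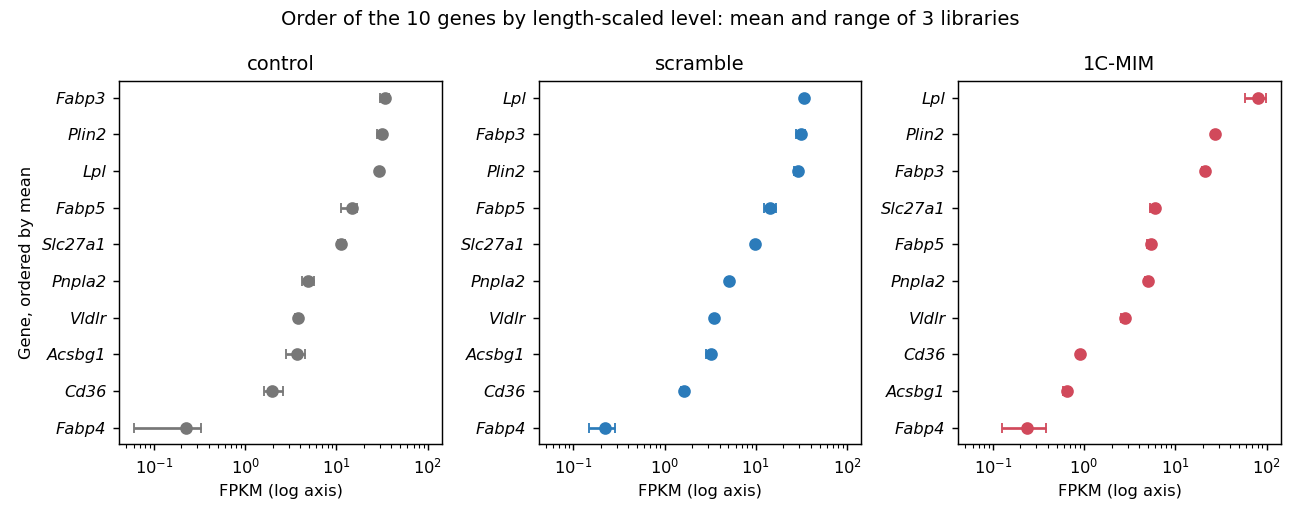
FPKM (log axis) of the 10 genes in control, scramble and 1C-MIM, ordered by the mean within each group. Points are means and bars the range of 3 libraries. Lpl moved from the third place in control to the first in 1C-MIM, where it stood at 80.8 FPKM, and Acsbg1 moved below Cd36.

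Genes of other cell types were looked at because Lpl, Cd36 and Fabp4 are also known from adipocytes, endothelial cells and macrophages. The 10 adipocyte markers summed to 7.12 to 7.96 CPM in control, 6.93 to 8.22 CPM in 1C-MIM and 6.62 to 8.15 CPM in scramble. Lipe, Plin1 and Cidec, like the endothelial Gpihbp1, also stand in the pathway lists described below. Lipe was the one adipocyte marker that could be tested, and Cidec had no count in any library. Nearly all of the adipocyte sum was Lipe, with means of 7.40 CPM in control, 7.66 CPM in 1C-MIM and 7.36 CPM in scramble. The 8 endothelial markers summed to 1.02 to 1.16 CPM in control, 1.34 to 1.66 CPM in 1C-MIM and 0.845 to 1.15 CPM in scramble, with Emcn, Gpihbp1 and Tie1 at 0 counts in all libraries. Of the 2 endothelial markers tested, Tek rose with 1C-MIM against control, to 0.928 CPM. The 8 macrophage markers summed to 11.7 to 13.4 CPM in control, 11.0 to 13.2 CPM in 1C-MIM and 10.9 to 13.4 CPM in scramble, with Adgre1 (listed as Emr1) at 0 counts. Most of the macrophage sum was Cd14, with means of 8.63 CPM in control, 8.54 CPM in 1C-MIM and 8.78 CPM in scramble. Markers of fibro-adipogenic progenitors were higher in sum with 1C-MIM, at 863 to 903 CPM, than in control (645 to 792 CPM) or scramble (712 to 809 CPM). Of 8 such markers 7 were tested, and 4 rose (Lum, Dcn, Pdgfra, Pi16) while 2 fell (Cd34, Ly6a) against control. The largest rise in CPM was that of Dcn, from a mean of 197 CPM in control and 224 CPM in scramble to 438 CPM. Ly6a went from 329 CPM in control to 239 CPM and Cd34 from 123 to 48.1 CPM, so these markers did not move together. The part of these markers in the changes of the 10 genes was not tested. In bulk RNA, fewer cells of a type and less RNA per cell cannot be told apart.

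The rest of the pathway was described by 10 lists with 113 genes, of which 89 were tested. Against control, 27 were higher and 22 lower with 1C-MIM, or 55.1% called, beside 47.3% over all genes. Against scramble, 26 were higher and 22 lower, or 53.9%, beside 46%. In scramble against control none was called. Without control replicate 1, 28 were higher and 21 lower against control. By list, the share called against control ran from 30.8% (PPAR targets) to 87.5% (caveola proteins). It was 50% for other carriers, triglyceride synthesis, droplet genes and lipolysis, near the 47.3% over all genes. The lists are small, with 4 to 15 tested genes, and no list was tested as a set. Up to 4 genes of each list, those with the smallest p at a mean of at least 1 CPM, are named below with their edgeR log2 fold changes.

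Of the partners of Lpl, 5 of 10 were tested, and 3 rose and 1 fell in both 1C-MIM comparisons (median log2 fold change 0.45 against control). This list mixes genes of lipase maturation and anchoring with genes of its inhibition. Its counts and median therefore have no single direction for lipase activity, which was not measured. Lmf1, the chaperone needed for lipase folding, rose from 20.5 ± 1.1 to 28.0 ± 1.1 CPM (0.45 ± 0.06, edgeR adjusted p = 1.6e-04). Apoe, a lipoprotein ligand, rose from 31.3 ± 3.9 to 62.4 ± 9.7 CPM (0.99 ± 0.11), and Apoc1 rose by 0.64 ± 0.22 from 1.15 CPM. Angptl4, a secreted inhibitor of lipoprotein lipase, fell from 12.8, 19.1 and 16.7 CPM in control to 11.4, 10.5 and 11.1 CPM (-0.56 ± 0.12, edgeR adjusted p = 0.0032). It also fell against scramble (-0.48 ± 0.12), where the libraries stood at 14.8, 15.4 and 15.6 CPM. Gpihbp1, the endothelial anchor of the lipase, had no counts.

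Among 7 other lipoprotein receptor genes, all tested, 2 rose and 3 fell against control, and likewise against scramble. Lrp1, a large receptor that takes up Apoe-bearing particles, was at 2297, 2285 and 2305 CPM in control and at 4148, 4727 and 4760 CPM in 1C-MIM. It rose by 0.99 ± 0.07 (edgeR adjusted p = 2.3e-06), and by 0.82 ± 0.07 against scramble. Its chaperone Lrpap1 rose by 0.13 ± 0.04. Lrp8, the apolipoprotein E receptor 2 and a close relative of Vldlr, fell from 9.94 ± 2.0 to 3.97 ± 0.65 CPM (-1.32 ± 0.16), and Scarb1, a receptor for HDL, fell by 0.29 on the log2 scale.

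Of 12 further fatty acid carriers only 4 could be tested, and 2 rose in both 1C-MIM comparisons. Slc27a4, a relative of Slc27a1, rose from 37.1 ± 2.7 to 47.8 ± 1.4 CPM (0.36 ± 0.07, edgeR adjusted p = 0.0012), while Slc27a1 fell. Got2, a mitochondrial aminotransferase also described at the plasma membrane, rose by 0.22 ± 0.05. Slc27a3 (-0.31 ± 0.12) and the acyl-CoA binding protein Dbi (-0.05 ± 0.06) were not called.

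Caveolae are membrane pits in which Cd36 is found, and 6 of their 8 genes fell in both 1C-MIM comparisons (median -0.59 against control and -0.65 against scramble). Cav3, the caveolin of muscle, fell from 40.5 ± 9.7 to 20.0 ± 1.4 CPM (-1.01 ± 0.15, edgeR adjusted p = 4.8e-04). Cav2 fell by 1.02 on the log2 scale. Cavin4 (listed as Murc), the cavin of muscle, fell from 317, 261 and 243 CPM in control to 155, 145 and 138 CPM (-0.90 ± 0.09). Cavin2 (listed as Sdpr) went the other way, from 90.1, 89.6 and 83.1 CPM to 165, 222 and 229 CPM (1.23 ± 0.11, edgeR adjusted p = 2.0e-05).

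Of the other acyl-CoA synthetases 5 were tested, and 2 fell and 1 rose in both 1C-MIM comparisons. Acsl5 fell from 56.6 ± 3.7 to 39.4 ± 1.2 CPM (-0.52 ± 0.06) and Acsl6 fell from 31.8 ± 9.5 to 19.0 ± 2.5 CPM (-0.74 ± 0.23). Acsl4, which prefers arachidonate, rose from 211 ± 4.9 to 280 ± 21 CPM (0.41 ± 0.06). Acsl3 was not called (0.07 ± 0.05).

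In triglyceride synthesis, 5 of 14 tested genes rose and 2 fell against control, and 4 rose and 3 fell against scramble. Gpam, the mitochondrial acyltransferase of the first step, rose from 49.7 ± 8.5 to 90.3 ± 6.9 CPM (0.86 ± 0.11, edgeR adjusted p = 1.0e-04). Gpat4 (listed as Agpat6), its counterpart in the endoplasmic reticulum, rose by 0.42 ± 0.06. Agpat4 fell by 0.48 and Agpat2 fell by 0.44 on the log2 scale. Of the lipid droplet genes, 4 of 10 tested fell and 1 rose against control, and 3 fell and 2 rose against scramble. The droplet coat gene Plin4 fell from 1.57 ± 0.14 to 0.599 ± 0.12 CPM (-1.38 ± 0.28), and Plin3 fell from 113 ± 5.3 to 101 ± 3.3 CPM (-0.16 ± 0.05). Tmem159, a droplet assembly factor, fell by 0.29, and Hilpda, an inhibitor of Pnpla2, fell by 0.42 on the log2 scale.

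Lipolysis genes other than Pnpla2 included 3 that rose and 1 that fell among 8 tested, in both 1C-MIM comparisons. The list mixes lipases with regulators such as the inhibitor G0s2, so these counts have no single direction for lipolysis. G0s2, an inhibitor of the Pnpla2 protein, rose from 23.2, 25.3 and 28.7 CPM in control to 46.4, 47.5 and 48.9 CPM (0.89 ± 0.08, edgeR adjusted p = 1.3e-05). Against scramble, at 26.1, 30.5 and 26.4 CPM, it rose by 0.78 ± 0.08. The G0s2 libraries of 1C-MIM lay above all others and close together, beside a Pnpla2 level that was not called. Mgll, the monoglyceride lipase of the last step, fell from 7.96 ± 0.51 to 3.93 ± 1.0 CPM (-1.02 ± 0.15). Faf2 and Ddhd2 each rose by 0.21 on the log2 scale.

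Lipid-sensing transcription factors included 7 that rose and 1 that fell among 15 tested, in both 1C-MIM comparisons. This was 53.3% called in each, beside 47.3% against control and 46% against scramble over all genes. Rxrb rose by 0.46 ± 0.05, Rxra, like Rxrb a partner receptor of the PPARs, by 0.35 ± 0.05 and Cebpb by 0.69 ± 0.11. Foxo1, a known activator of Lpl and Pnpla2 genes, fell from 49.6 ± 3.9 to 34.7 ± 4.3 CPM (-0.51 ± 0.09, edgeR adjusted p = 9.7e-04). The 3 PPAR genes, named here after their values were seen, were not called: Ppard (0.03 ± 0.05), Pparg (-0.18 ± 0.10) and Ppara (1.26 ± 0.59, at 0.258 CPM in control). Of 13 further PPAR target genes tested, 2 rose and 2 fell against control, or 30.8% called, and 1 rose and 2 fell against scramble, or 23.1%. Pdk4, which blocks glucose oxidation, fell from 40.4, 41.3 and 42.5 CPM to 21.6, 22.8 and 18.5 CPM (-0.98 ± 0.08, edgeR adjusted p = 4.1e-06). Ucp2 fell by 0.39 on the log2 scale. Cpt1a, the gate of mitochondrial fatty acid oxidation, rose by 0.36 ± 0.06, and the carnitine carrier Slc25a20 rose by 0.22 ± 0.07. Some named genes share exon bases with a gene on the opposite strand in GENCODE vM21. Examples are Cebpb with Tmem189 (20.7% of its exon bases), Foxo1 with Gm20402 (7.78%) and Acsl5 with Zdhhc6 (8.31%). Lipe (15.6%), Ckm (15.5%), Tmem159 (11.5%) and Got2 (9.0%) are also among them. The values of such genes are uncertain to that extent.

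**Figure D4:**
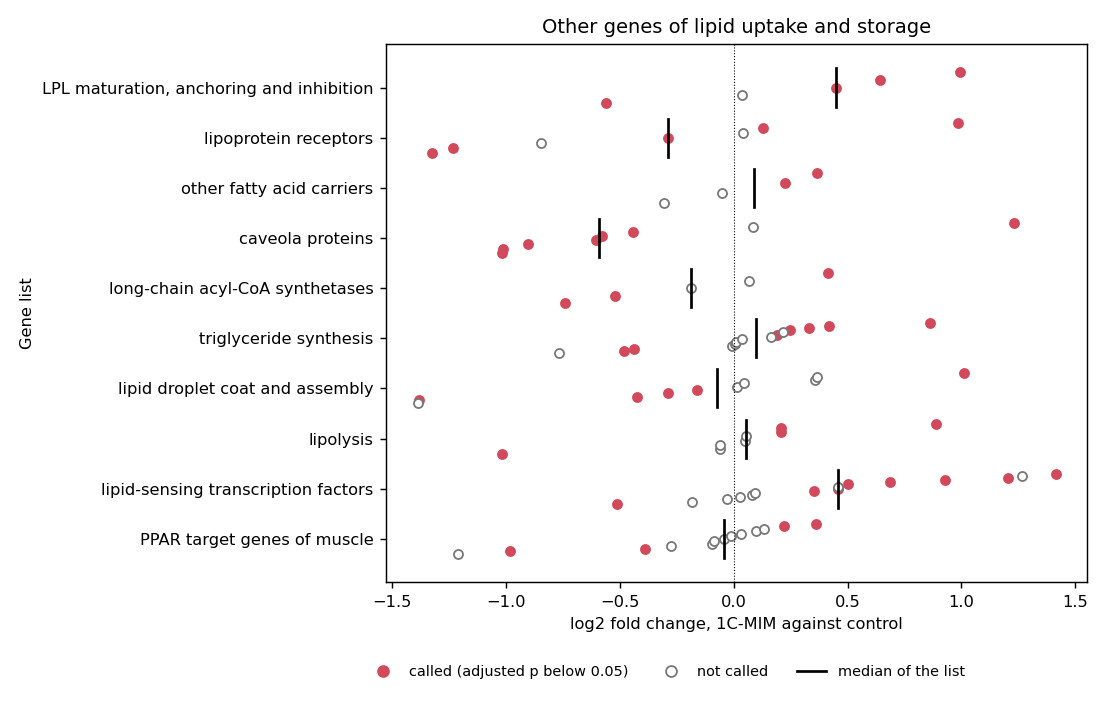
Log2 fold changes, 1C-MIM against control, of the 89 tested genes in the 10 lists around fatty acid uptake and storage. Filled points passed an edgeR adjusted p below 0.05, open points did not, and bars mark list medians. Caveola proteins lie mostly to the left of 0 (median -0.59), with Cavin2 at 1.23 to the right.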

How the data were processed

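RNA-seq libraries were made from 1.3 µg of total RNA with a SMARTer mRNA kit, per the labels' protocols. The submitters' processing notes list, without roles, the build GRCm39 and the tools STAR, Salmon 1.5.2, featureCounts, Subread 2.0.1, StringTie 2.2.1, DESeq2 1.28.0 and Trim Galore 0.6.7 among other tools. The counter, its strand setting and its rule for reads that match several genes are not stated. Per the file headers, each library's table has count, FPKM and TPM columns for 33984 transcripts. The deposited counts are whole and unnormalized. The deposited FPKM values divide by transcript length and library total, and were used for levels between genes. TPM was not used.

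Each symbol was represented by its transcript with the highest mean count. Genes that passed filterByExpr were tested with edgeR 4.0.16 (quasi-likelihood, robust, TMM, all 9 libraries in 1 fit, R 4.3.3), with Benjamini-Hochberg adjustment over 14006 genes. The threshold was an adjusted p of 0.05. CPM use TMM-scaled totals, and fold changes carry the SE of the fit. The scripts were checked on simulated data. Alternatives were other scalings, filters and transcript rules, DESeq2 1.42.0, limma-voom (limma 3.58.1), the compared groups alone, a replicate block, left-out libraries and a stricter threshold. Same-numbered libraries of scramble and control deviated together from their group means in all 3 pairs (r = 0.48, 0.21 and 0.17 across genes). The libraries numbered 1 stood apart in both groups and deviated alike (r = 0.48), for a reason that was not tested. Such a shared deviation pulls the other libraries of each group to the same side of its mean. The r values of the other pairs are therefore not independent of it. This measure alone cannot decide whether the numbers pair the libraries, and no label states a shared batch. With the replicate block no gene was called in scramble against control either.

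The 10 genes, the lists and the tests were chosen with earlier results of these data known. Besides all 10 genes, the text names up to 4 genes per list and comparison, by smallest p at a mean of at least 1 CPM. Of 113 listed genes, 7 were matched by an older symbol. Promoter windows are from RefSeq (GRCm38.p6), and exon overlaps from GENCODE vM21. Between replicates of a group the chi-square over genes was 3.26 to 47.5 for each degree of freedom, above the 1 that counting noise alone would give, so none was counted as a repeat deposit.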

Additional observations from a re-analysis of the deposited data

How the results depend on the processing

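Under the 22 alternatives, Lpl, Vldlr, Cd36, Slc27a1, Fabp3, Fabp5 and Acsbg1 kept their direction and their call in both 1C-MIM comparisons. The log2 fold change of Lpl against control ran from 1.31 to 1.70 over the alternatives, and that of Acsbg1 from -2.63 to -2.30. Plin2, not called against control, was called in 4 settings: library size alone as the scale (-0.22), the replicate block (-0.17), without control replicate 1 (-0.26) and with the 3 libraries numbered 1 left out (-0.22). The sign of the uncalled Pnpla2 changed once against control and 2 times against scramble. In scramble against control, the number of genes called was 0 with edgeR, 4 with DESeq2 without independent filtering, 30 with it, and 96 with the 3 libraries numbered 1 left out. Leaving out 1 library at a time gave 0 to 3. The cause was not tested. With the replicate block, 7397 genes were called against control, 7309 between 1C-MIM and scramble, and 0 between scramble and control. Apart from Plin2, the block changed no call of the 9 tested genes of the set. Same-numbered libraries of 1C-MIM and the other groups correlated by 0.03 to 0.19, and 4 of 9 libraries correlated best with their own number in both other groups. Fabp4, with 2 to 12 counts per library, was tested without the filter on low counts, with a log2 fold change of 0.10 ± 0.59 against control.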
